A study of Mus musculus with 2 samples.

Results

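The 10 genes described here form the upstream part of interferon signalling: the receptor chains Ifnar1, Ifnar2, Ifngr1 and Ifngr2, the Janus kinases Jak1, Jak2, Jak3 and Tyk2, and the feedback inhibitors Socs1 and Socs3. They were chosen by gene symbol, and 9 of the 10 were measured among 19505 genes; Jak3 had no probe set named in the annotation used here. The question was whether these genes differed between 2 cultures whose interferon target genes differed. Both cultures were mouse macrophages derived from marrow cells in the presence of M-CSF, a growth factor that drives macrophage differentiation, dosed at 25 ng/mL at the start (day 0) and on day 3, with experiments from day 5 on. One group had the genotype MC4RTB/TB, called TB/TB here, and the other carried LysM as well, labelled LysM (+);MC4RTB/TB and called LysM(+) here, so both groups share the MC4RTB/TB genotype. As background that the labels do not spell out, a TB allele of the melanocortin 4 receptor gene is known as one silenced by a cassette that Cre can remove, and LysM (Lyz2) is a gene commonly used to drive Cre in monocytes, macrophages and neutrophils alike. Both groups were recorded with 10% fetal bovine serum. No further treatment was named for either group, and the age, sex and number of mice behind each culture were not among the labels. There was 1 array per group, which leaves no replicate check and no test, so every value describes these 2 arrays.

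Interferons act through paired receptor chains that carry Janus kinases on their inner ends. Type I interferons bind IFNAR1 and IFNAR2, which carry TYK2 and JAK1, and the kinases then phosphorylate STAT proteins. ISGF3, a complex that includes STAT2 and IRF9, binds the interferon-stimulated response element (ISRE) of antiviral genes. Interferon-gamma binds IFNGR1 and IFNGR2, which carry JAK1 and JAK2, and acts on its target genes through gamma-activated sites (GAS). SOCS1 and SOCS3 are induced by STATs and shut the signal off at the kinases and receptors. Macrophages are among the cells in which this pathway is best known, since interferon-gamma is the classical signal for their activation.

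Values are deposited log2 expression values made with RMA, which normalizes arrays against each other and summarises the probes of a gene. A difference is always the LysM(+) value minus the TB/TB value, and folds take the scale as log2, which the method's name implies and the values, reaching 19.51, do not settle. Values of a probe set cannot be compared with those of another gene's, so no order of levels among the genes is given. A gene was counted as different when the arrays were 1.5-fold or more apart and the brighter of its values was 6.12 or above; that level, the median of the named probe sets, is called the brightness floor. The 23 background control probe sets lay between 3.09 and 6.81 on these arrays. Macrophage markers were bright on both arrays, with a median of 16.07 in LysM(+) and 16.21 in TB/TB over 10 measured genes. Of these 10, 0 were counted, which with so few genes lies near the 16.1% counted among all genes above the floor. Mertk, at 12.41 and 12.98, came closest, 1.49-fold lower in LysM(+). The T cell genes Cd3e, Cd3d and Cd3g, all 7 natural killer cell markers and all 5 mast cell and basophil markers were under the floor on both arrays. Of 7 measured T cell markers 3 reached the floor, and 1 of them, Cd28, was counted as lower in LysM(+) at 12.91 and 13.73. Among the B cell markers 1 of 5 measured genes reached the floor, among the conventional dendritic cell markers 1 of 6, and among the plasmacytoid dendritic cell markers 3 of 6: Siglech at 6.33 and 6.51 and Klk1 at 6.56 and 6.50, within the range of the background controls, and Tcf4 at 14.48 and 14.63. Of the fibroblast markers 4 of 6 reached the floor, and 1 of them, Col1a2, was counted as lower in LysM(+) at 8.54 and 9.14; of the erythroid markers 0 of 3 reached it. Among the lists used here the median difference was largest for cell division genes, with all 11 measured members counted as higher in LysM(+) at a median difference of 3.34. Over all genes above the floor, 10.9% were counted as higher and 5.16% as lower in LysM(+). In these bulk cultures fewer cells of a type and less RNA per cell cannot be told apart.

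The interferon receptor chains had nearly the same values on both arrays. Ifnar1, the low-affinity chain of the type I receptor, had a value of 13.49 in LysM(+) and 13.55 in TB/TB. Ifnar2, the high-affinity chain of the same receptor, had values of 14.42 and 14.33. The type I receptor chains therefore differed in opposite directions and by little, with differences of -0.068 for Ifnar1 and 0.097 for Ifnar2. Ifngr1, the ligand-binding chain of the interferon-gamma receptor, had values of 14.54 and 14.56, a difference of -0.0225. Ifngr2, the signal-transducing chain of that receptor, had values of 13.25 and 13.32, a difference of -0.063. The largest of these 4 differences corresponds to 1.07-fold. Of the 10137 genes above the floor, 79.7% differed by more than Ifnar2 did, 85.4% by more than Ifnar1, 86.6% by more than Ifngr2 and 95.2% by more than Ifngr1. Ifnar2, Ifnar1 and Ifngr2 lie next to each other on chromosome 16, together with Il10rb, the chain shared by the interleukin-10 and type III interferon receptors. Il10rb, too, had nearly equal values, 14.85 and 14.86. Its partner in the type III receptor, Ifnlr1, was under the floor on both arrays at 4.46 and 4.38. Gart, a purine synthesis gene within 100000 bases of this cluster and named after its value was seen, was 1.60-fold higher in LysM(+), with values of 10.75 and 10.06, so the near-equal values were not shared by every gene nearby.

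**Figure D1:**
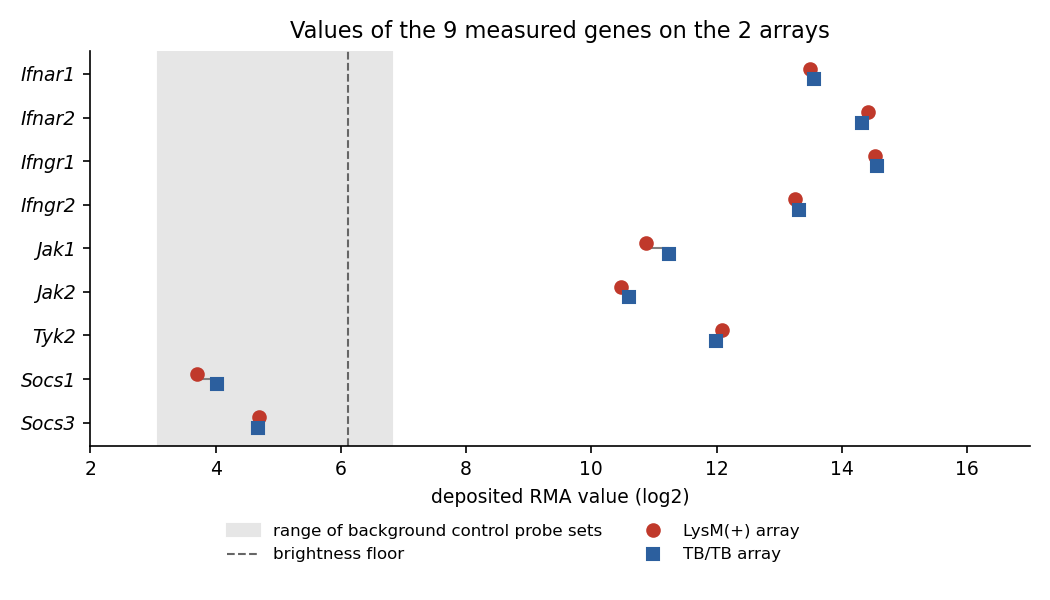
Deposited log2 value of each of the 9 measured genes on the LysM(+) array (circles) and the TB/TB array (squares), 1 array per group; the shaded band spans the background controls and the dashed line the brightness floor of 6.12. The receptor chains and Jak1, Jak2 and Tyk2 lie above the band with small gaps between the arrays, and Socs1 and Socs3 lie inside it.

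Of the Janus kinases, Jak1 had the largest difference among all 9 measured genes and still lay short of 1.5-fold. Jak1, the kinase shared by the type I and the interferon-gamma receptors, had a value of 10.87 in LysM(+) and 11.25 in TB/TB. It was thus 1.29-fold lower in LysM(+), a difference of -0.37, and 34.5% of the genes above the floor differed by more. Jak2, which serves the interferon-gamma receptor and the receptors for erythropoietin and GM-CSF, had values of 10.47 and 10.60 and was 1.10-fold lower in LysM(+). Tyk2, which serves the type I receptor and the interleukin-12 receptor, had values of 12.09 and 11.99 and was 1.07-fold higher. The measured kinases thus did not share a direction, with Jak1 and Jak2 lower and Tyk2 higher in LysM(+). Their median difference, -0.13, became -0.24 after quantile normalization of the columns, a shift made by Jak2, the middle gene of the 3. Jak3, not analysed here, is the kinase of the common gamma chain and is known mainly from lymphocytes.

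Socs1 and Socs3, the feedback inhibitors, were at the level of the background controls on both arrays. Socs1, which blocks the kinases bound to the interferon receptors, had a value of 3.70 in LysM(+) and 4.02 in TB/TB. Socs3, which acts mainly at receptors that use the Il6st chain, had values of 4.70 and 4.68. The differences were -0.32 and 0.021, and the largest difference of a background control between the arrays was 0.094. Other genes under the floor on both arrays differed by more than Socs1, in either direction. Examples named after their values were seen are Il2rb, at -0.46, and Arg1, at 0.45. All 4 values of Socs1 and Socs3 were under the brightness floor and within the range of the background controls. The levels on which these differences rest were therefore not distinguishable from background. That limit is on the probe sets as well as on the transcripts, since no detection calls were used here. Both genes are known to be induced by STATs, and letters of the DNA elements named above occur in their promoters. The 250 bases before the RefSeq start are shown for both, because these genes are at once members and targets of the pathway. For comparison the same stretch is shown for Ifit3 and Rsad2, antiviral genes that were lower in LysM(+) (values given with the targets). Capitals mark GAAANNGAAA, the core of the ISRE, or TTCNNNGAA, the core of a GAS, searched on both strands with overlapping matches allowed, and all sequences are from RefSeq, build GRCm38.p6, 5′ to 3′ along the gene.
Socs1, chr16:10785537-10785786, minus strand: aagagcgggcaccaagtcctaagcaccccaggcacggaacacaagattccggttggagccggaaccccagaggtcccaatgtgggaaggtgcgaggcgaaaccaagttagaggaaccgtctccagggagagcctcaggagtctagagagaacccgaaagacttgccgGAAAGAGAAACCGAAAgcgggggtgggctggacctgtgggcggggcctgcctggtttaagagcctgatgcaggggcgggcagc
Socs3, chr11:117969367-117969616, minus strand: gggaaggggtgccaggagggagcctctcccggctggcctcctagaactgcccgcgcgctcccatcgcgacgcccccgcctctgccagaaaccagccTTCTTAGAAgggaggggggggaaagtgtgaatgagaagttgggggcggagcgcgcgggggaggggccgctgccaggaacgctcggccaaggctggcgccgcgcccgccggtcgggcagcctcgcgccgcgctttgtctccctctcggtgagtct
Ifit3, chr19:34583279-34583528, plus strand: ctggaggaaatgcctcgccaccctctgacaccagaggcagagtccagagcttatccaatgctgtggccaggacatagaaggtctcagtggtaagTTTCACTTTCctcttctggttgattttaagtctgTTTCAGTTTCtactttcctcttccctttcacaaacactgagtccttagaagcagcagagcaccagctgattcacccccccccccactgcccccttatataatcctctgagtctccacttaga
Rsad2, chr12:26456453-26456702, minus strand: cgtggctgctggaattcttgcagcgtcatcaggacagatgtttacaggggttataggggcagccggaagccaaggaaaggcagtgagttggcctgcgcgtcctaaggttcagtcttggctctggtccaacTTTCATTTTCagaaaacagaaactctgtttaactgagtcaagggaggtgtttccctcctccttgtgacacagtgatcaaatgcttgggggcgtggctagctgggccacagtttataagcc
The Socs1 stretch holds 2 overlapping ISRE cores and no GAS core, and the Socs3 stretch holds 1 GAS core and no ISRE core. Ifit3 holds 2 ISRE cores and Rsad2 holds 1, all read from the opposite strand. Of the 10 receptor, kinase and inhibitor genes, all of which had 1 promoter in the table, Socs1 alone held an ISRE core, and Socs3 and Ifnar2 held a GAS core. Over all 27025 genes with a promoter in the table, 3.46% held an ISRE core and 8.13% a GAS core in the same stretch. Among ISGF3 target genes 8 of the 22 with a promoter in the table held an ISRE core, as did 9 of 19 interferon-gamma targets. These are matches of letters only.

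Set against the rest of the array, none of the 9 measured receptor, kinase and inhibitor genes was counted in either direction (0 genes). Of all genes above the floor, 16.1% were counted, 10.9% as higher and 5.16% as lower in LysM(+). The 7 members above the floor reached it on both arrays. Over the 2797 genes whose mean value lay in the range of these 7, from 10.54 to 14.55, 10.5% were counted, 8.01% as higher and 2.5% as lower. With 7 genes, a count of 0 lies near these shares and is not a result particular to the members. The median difference was -0.063 over the 9 members, beside -0.0062 over all genes and 0.065 over all genes above the floor. In size, without regard to direction, the median difference of the 7 members was 0.097, beside 0.226 for the genes of their brightness range. The 7 members above the floor kept their direction under centring, quantile normalization and loess, though several differences are small against the shifts these make. Jak1 ranged from -0.45 to -0.36 over these settings, Jak2 from -0.24 to -0.13 and Tyk2 from 0.026 to 0.11. Ifnar2 ranged from 0.0315 to 0.10 and Ifngr1 from -0.072 to -0.016. Ifnar1 ranged from -0.12 to -0.062 and Ifngr2 from -0.12 to -0.056.

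**Figure D2:**
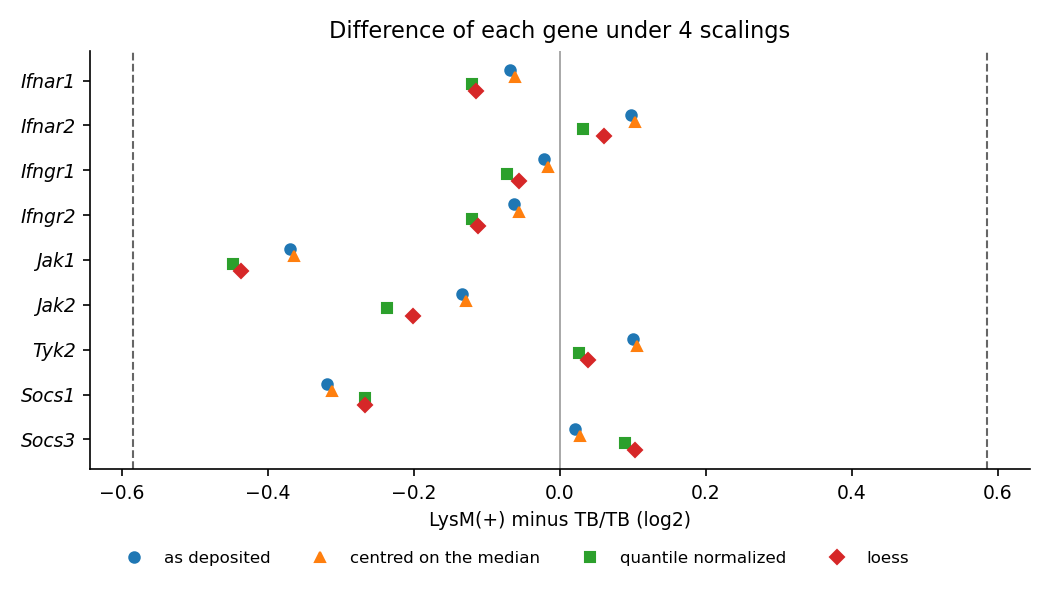
Difference (log2, LysM(+) minus TB/TB) of each measured gene under 4 scalings of the arrays: as deposited, centred on the median difference, quantile normalized and with a loess correction. Dashed lines mark 1.5-fold in each direction; each gene keeps its sign, though Socs1 and Socs3 are at background level, and Jak1, between -0.45 and -0.36, comes closest to the line.

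None of the 7 measured STAT and IRF9 genes, the transcription factors that the kinases act on, was counted in either direction (0 genes). Of these 7, 6 reached the floor. A count of 0 among 6 genes lies near the 16.1% counted among all genes above the floor. The median difference of the 7 genes was -0.19. By any amount 5 of the 6 were lower in LysM(+), beside 4347 of the 10137 genes above the floor. Stat2, a subunit of ISGF3, had values of 10.29 in LysM(+) and 10.85 in TB/TB, a difference of -0.56 that is the largest of the list. After quantile normalization or loess Stat2 passed 1.5-fold, with differences of -0.65 and -0.62. Irf9, the DNA-binding subunit of ISGF3, had values of 9.47 and 9.71, a difference of -0.25. Both genes are known as interferon targets as well as parts of the pathway. Stat3, which serves interleukin-10 and interleukin-6, and Stat6, which serves interleukin-4, both differed by -0.13. Stat5a and Stat5b, which serve GM-CSF, differed by 0.28 and -0.19. Stat4, known mainly from lymphocytes, was under the floor on both arrays, at 4.70 and 4.99.

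The other SOCS genes held the largest differences of the SOCS family, in both directions. Socs6, which is linked to receptor tyrosine kinases rather than to interferon, had values of 8.89 in LysM(+) and 10.00 in TB/TB, a difference of -1.11. Socs4 had values of 8.96 and 8.32, a difference of 0.65, and lost its count after quantile normalization. Socs5 had values of 6.77 and 6.15, a difference of 0.62, with both values within the range of the background controls. With Socs6 lower and Socs4 and Socs5 higher, 3 of the 6 measured genes of this list, 5 of which reached the floor, were counted, beside 16.1% of all genes above the floor, and its median difference was -0.053. Socs2 (5.93 and 6.18), Socs7 (6.25 and 6.35) and Cish (3.68 on both arrays) were within the range of the background controls. Among 13 other negative regulators, the phosphatases, PIAS proteins and adaptors of the pathway, 1 was counted and the median difference was 0.023. That gene was Usp18, which binds IFNAR2 and blocks the type I receptor and is itself an interferon target. Its values were 8.38 in LysM(+) and 9.72 in TB/TB, a difference of -1.34, against the near-equal values of Ifnar2.

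The interferon genes themselves were dim. Of 18 measured interferon genes 4 reached the floor. Beside 5.16% lower among all genes above the floor, 1, Ifna5, was counted as lower in LysM(+), with values of 7.42 and 8.003. Its difference, -0.59, sat at the threshold, and it was no longer counted after centring. The median difference of the list was -0.22, but 14 of the 18 genes were under the floor on both arrays, where levels are not distinguishable from background. Ifna1 (5.61 and 6.16), Ifna7 (5.87 and 6.40) and Ifnl3 (6.15 and 6.46) reached the floor but were within the range of the background controls. These genes were named after their values were seen. Ifnb1, the interferon that macrophages are best known to make and named after its value was seen, had values of 5.36 and 6.03, both under the floor, and Ifng had values of 5.89 and 5.84. Interferon-alpha genes are so alike in sequence that probes of one may read another, so their values are not independent.

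The target genes of type I interferon had larger differences on these arrays, mostly toward lower signal in LysM(+). Of 30 measured ISGF3 targets, 28 reached the floor, 12 were counted as lower in LysM(+) and none as higher (0 genes), beside 5.16% lower among all genes above the floor. Their median difference was -0.51, and it stayed between -0.53 and -0.50 under the other scalings. Among the 12, Ifit2, named after its value was seen, had values of 5.93 and 6.52, both within the range of the background controls. The count was 11 after centring and 13 after quantile normalization or loess. Rsad2, which makes an antiviral nucleotide, had values of 8.42 in LysM(+) and 9.72 in TB/TB. Ifit3, which works with other IFIT proteins against viral RNA, had values of 11.64 and 12.83, and Xaf1, an apoptosis-linked interferon target, had values of 11.79 and 12.90. Including Usp18, the 4 genes with the largest differences were between 2.16-fold and 2.53-fold lower. The list was chosen with earlier results of these arrays known, so its direction is no independent evidence. It was not uniform either, since 6 of the 30 genes were higher by any amount. Ifit1 and Eif2ak2, named after their values were seen, had differences of 0.29 and 0.27. The list includes Stat2, Irf9 and Usp18; over the 27 targets outside the STAT and inhibitor lists, 11 were counted as lower and the median difference was -0.45.

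Of 23 measured interferon-gamma targets 19 reached the floor, 4 were counted as lower in LysM(+) and none as higher (0 genes), beside 5.16% lower among all genes above the floor. Their median difference was -0.23, and 5 of the 23 were higher by any amount. Psmb9, an immunoproteasome subunit named after its value was seen, came close to being counted as higher, at 9.39 and 8.81. Ciita, the master regulator of class II presentation, had values of 7.75 and 8.69, and Gbp2, an interferon-inducible GTPase, had values of 9.57 and 10.36. The class II gene H2-Ab1 had values of 14.86 and 15.51 and Cd274, the checkpoint ligand PD-L1, had values of 11.53 and 12.16. These 4 genes were between 1.54-fold and 1.91-fold lower, while Ifngr1 and Ifngr2 differed by at most 1.04-fold. The transcription factor genes Irf1 and Irf8, which are induced by interferon-gamma, had differences of -0.19 and -0.21 and were also named with their values known. No test compares the upstream genes with the targets, since 1 array per group gives no error for either. Beside these target differences, the same arrays differed in other ways whose part was not tested. Of 9 measured neutrophil markers 8 reached the floor, 4 were counted as higher in LysM(+) and none as lower (0 genes), beside 10.9% higher among all genes above the floor. Of these 4, Cxcr2, at 6.74 and 6.03, was within the range of the background controls on both arrays. Elane and Retnlg were within it on the TB/TB array, at 6.46 and 6.29, and Ltf, at 9.69 and 8.31, on neither array. The median difference of the 9 neutrophil markers was 0.51, and Ngp, at 16.32 and 15.92, was not counted. Mpo went the other way, at 9.99 and 10.29, and was not counted. Of 5 measured monocyte markers, all above the floor, 1 was counted as higher, beside the same 10.9%. That gene was Cx3cr1, at 9.15 and 7.25. The median difference of the list was 0.36, and Nr4a1 went the other way, at 6.42 and 6.91. All 11 cell division genes were higher, as given above.

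**Figure D3:**
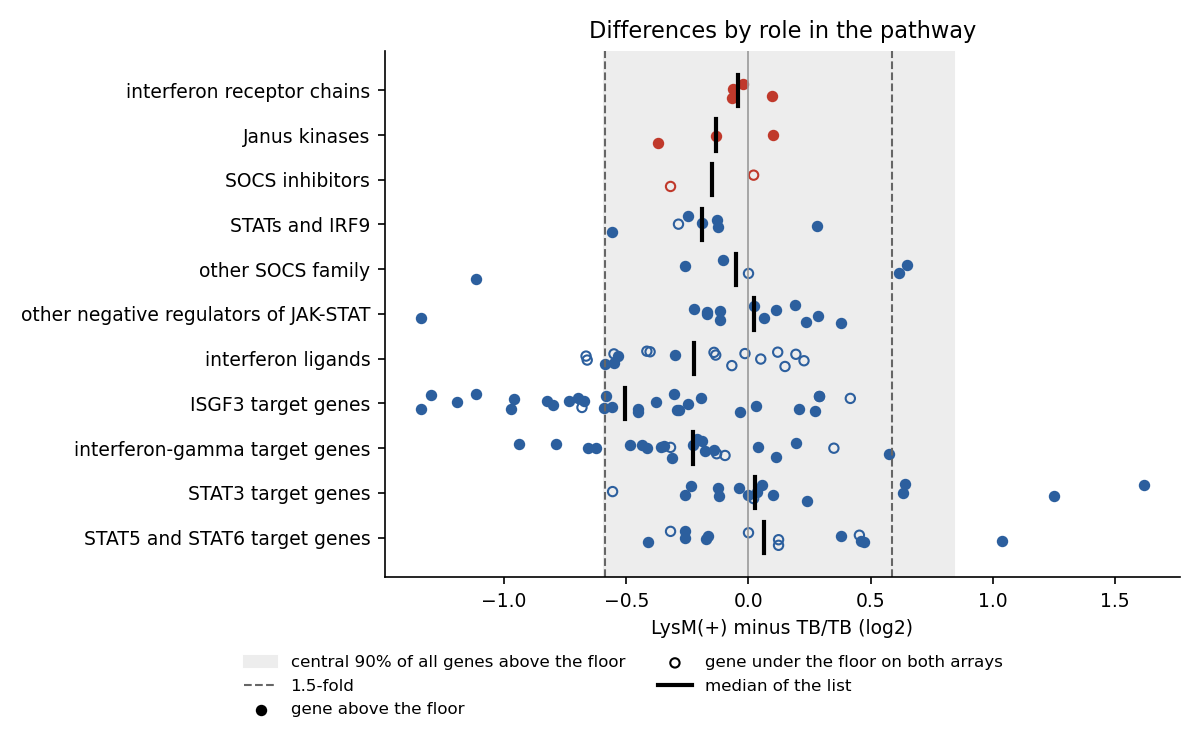
Difference (log2, LysM(+) minus TB/TB) of the measured genes of the lists shown, by role in the pathway, with the median of each list as a black bar. The type III receptor chains, the other JAK-coupled receptors and the cell division genes are not drawn. Filled points reached the brightness floor and open points did not. The grey band holds the central 90% of all genes above the floor, and dashed lines mark 1.5-fold. The receptor chains, kinases and SOCS inhibitors (red) lie between the lines, whereas ISGF3 targets reach from -1.34 to 0.42 around a median of -0.51.

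**Figure D4:**
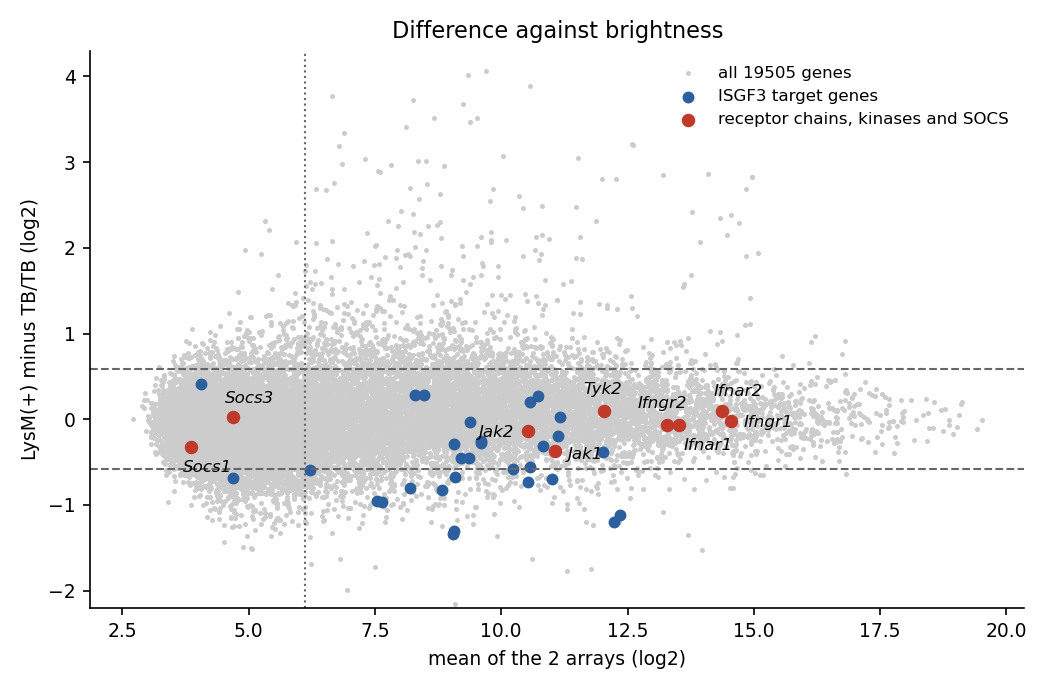
Difference, LysM(+) minus TB/TB, against the mean of both arrays, each on the log2 scale, for all 19505 genes (grey), ISGF3 targets (blue) and the 9 measured receptor, kinase and inhibitor genes (red); dashed lines mark 1.5-fold and the dotted line the brightness floor. The receptor chains and kinases sit among bright genes close to 0, Socs1 and Socs3 lie left of the floor, and 12 of the ISGF3 targets lie below the lower line and reach the floor.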

How the data were processed

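Total RNA of 2 cultures was labelled with biotin and hybridised to whole-transcript GeneChip arrays, 1 per group. The deposited values are log2 values from RMA, which the authors ran in Affymetrix Expression Console according to the submitters' processing notes. Neither versions nor the log base is given in the sources used here. The platform annotation named a single gene for 19572 of 28846 probe sets, all of which matched the RefSeq gene table of GRCm38.p6 by Entrez ID. They gave 19505 genes. Where a gene had several probe sets their mean was used; each member had 1. Rigi was matched by its older symbol, Ddx58. Ranks and shares are over genes above the floor. Groups came from the genotype label. The members, the 11 other pathway lists and the 11 marker lists were chosen with earlier results of these data known. Named are all members, all measured genes of pathway lists of up to 8, and of longer pathway lists the 4 counted genes with the largest differences in each direction; other pathway genes are said to be named after their values were seen. Markers named singly were also picked with their values known. Counting and scaling were tested on simulated data. Alternatives were centring, quantile normalization, loess (span 0.4), the brightest probe set, 3 other floors, and thresholds of 2-fold and of values 25% apart. Python 3.11.15, pandas 2.3.3 and statsmodels 0.14.6 were used. Signal over background is known only from the control probe sets, and precision is limited by the number of arrays.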

Additional observations from a re-analysis of the deposited data

How the results depend on the processing

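With a threshold of values 25% apart 1 member, Jak1, was counted as lower, and over all genes 2581 were counted as higher and 1523 as lower. With a 2-fold threshold 329 genes were higher and 87 lower. Without the brightness floor 1075 genes were lower. The members' other counts stayed at 0 and their median difference moved by less than 0.1 under each alternative run. Among values of the other lists and of single members, 317 kept to within the limits set for them and 27 moved, the latter mostly counts of a few genes under another threshold. No paired analysis was possible because each group had 1 array. Leaving out an array would leave no comparison. The dim Socs1 and Socs3 probe sets set the limit of what these arrays show of the inhibitors.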

Other observations

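Janus kinases also serve many other cytokine receptors. Of 23 measured JAK-coupled receptor genes 15 reached the floor, 1 was counted as higher and 2 as lower in LysM(+), beside 10.9% higher and 5.16% lower among all genes above the floor. Their median difference was -0.10. Csf2rb, the chain shared by the GM-CSF, interleukin-3 and interleukin-5 receptors, had values of 10.35 in LysM(+) and 11.11 in TB/TB. Il15ra, the interleukin-15 receptor chain, had values of 6.60 and 7.24. Ghr, the growth hormone receptor, had values of 6.29 and 5.56, both within the range of the background controls. After quantile normalization or loess Csf3r and Il12rb2, named after their values were seen, were also counted as lower.

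Genes known as targets of other STATs had medians near 0 over all measured genes, and those counted were higher in LysM(+). Of 16 STAT3 targets 14 reached the floor, 4 were counted as higher and none as lower (0 genes), beside 10.9% higher among all genes above the floor, with a median difference of 0.027. These were Myc, a growth regulator, at 12.18 and 10.57, Il1rn, the interleukin-1 receptor antagonist, at 10.28 and 9.03, the anti-inflammatory cytokine gene Il10 at 8.49 and 7.85, and Sbno2 at 9.08 and 8.45. Of 14 targets of STAT5 and STAT6, 9 of which reached the floor, the transcriptional repressor gene Bcl6 was counted as higher, at 10.98 and 9.94. The median difference of this list was 0.061 over all 14 genes and -0.16 over the 9 that reached the floor. Socs3, a STAT3 target, and Socs1, a target of several STATs, were within the range of the background controls, as given above.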
